A study of Mus musculus with 86 samples.

Results

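The RNAs of the mouse proteasome were followed in the soma and neurites of neuronal cell lines. The genes were the protein-coding ones whose symbols begin with Psma, Psmb, Psmc or Psmd, which gave 40 of the 53664 genes with a listed transcript, and 4 pseudogenes with such symbols were left out. Of the 40, 19 encode subunits of the core particle, 20 encode subunits or assembly chaperones of the regulatory particle, and Psmc3ip, a meiotic recombination factor named for its binding to Psmc3, is no subunit. The study asked how loss of TDP-43, an RNA-binding protein encoded by Tardbp, alters RNA localization.

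CAD and N2A are mouse neuronal tumor lines, and 36 libraries of polyadenylated RNA in 12 groups of 3 were used. Cells grew on porous membranes that let neurites through while cell bodies stayed above, and each side was sequenced separately. In the conditional knockout lines the endogenous Tardbp alleles had been inactivated with CRISPR/Cas9 in cells that came from single clones, and a single-copy guide-resistant HA-tagged Tardbp transgene under a doxycycline-off promoter supplied the protein. Both genotypes carried these alleles. The libraries without doxycycline are called wild-type, and those given doxycycline for 48 h are called knockout. The labels put the dose at 2 µg/mL, and the study's methods name a lower one for the fractionation. No library of these lines had doxycycline without loss of TDP-43, so within them the effects of the drug and of the loss cannot be told apart. A further set of CAD lines expressed a doxycycline-induced wild-type or Q331K HA-tagged TDP-43, Q331K being an amyotrophic lateral sclerosis substitution, while endogenous TDP-43 was lowered through autoregulation. The labels do not say that replicates were separate cultures or clones, so the p-values measure only the spread between these libraries. In such bulk samples, fewer cells of a type and less RNA per cell cannot be told apart.

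The proteasome degrades proteins tagged with ubiquitin. Its core particle is a barrel of stacked rings, with outer rings of alpha subunits (Psma genes) that gate entry and inner rings of beta subunits (Psmb genes), of which Psmb5, Psmb6 and Psmb7 cut the substrate. The regulatory particle caps the barrel: its Psmc genes encode the ATPases that unfold and thread the substrate, and most of its Psmd genes encode scaffolds, ubiquitin receptors and the lid. Cells respond to a shortage of proteasome activity by raising transcription of nearly all subunits together through Nfe2l1, and neurons use proteasomes in axons, dendrites and at synapses.

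The CAD and N2A libraries held 22726534 to 32895542 estimated counts and the transgene libraries 9783050 to 15870647. The deposited estimates listed 135181 transcripts in the CAD and N2A libraries and 133618 in the transgene libraries, so the transcript sets differed. Tardbp showed the labelled genotypes: in CAD soma it fell from 537 ± 28.6 to 93.8 ± 4.08 CPM (counts scaled for library size, SD, n = 3), a log2 change of -2.52, and in N2A soma the change was -1.78. It did not pass the test between the transgene lines, where the soma difference was -0.02 ± 0.09 (SE). All 8 neuronal markers exceeded 1 CPM in every group, as did 3 of 5 catecholaminergic markers in the CAD groups and 2 of 5 in the N2A groups. No more than 2 of 6 glial, 3 of 6 fibroblast and muscle and 1 of 4 blood cell markers did so in any CAD or N2A group. Mitochondrial RNA made up 13.9 to 22.3% of the counts in CAD neurites and 4.19 to 7.01% in CAD soma.

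Core subunit RNAs were more abundant than regulatory subunit RNAs. Genes were compared with TPM, transcript abundances that account for transcript length. Among the 14 constitutive core subunits of CAD wild-type soma the median was 102, 137 and 151 TPM in the 3 libraries, and among the 17 regulatory subunits it was 67.4, 86.5 and 99.9 TPM. Within the regulatory particle, lid subunits had a mean median of 91.5 ± 16.3 TPM (SD, n = 3), the ATPases 64.5 ± 11.7, and the base assembly chaperones Psmd5, Psmd9 and Psmd10 lay lower at 20.2 ± 2.11.

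Psma7, an alpha-ring subunit, had the highest level in CAD wild-type soma at 256, 340 and 378 TPM (mean 325 ± 62.5), followed by Psma6 at 247 ± 47.6 and Psmb1, a beta-ring subunit, at 236 ± 46.1, whose ranges overlapped with each other. In N2A wild-type soma Psma6 (184 ± 29.6 TPM) and Psma7 (181 ± 21.0) led and did not differ beyond their spread. The regulatory subunit with the highest level was Psmd2, a base scaffold, at 141 ± 24.5 TPM in CAD and 106 ± 9.59 in N2A, where it did not differ beyond the spread from the ATPase gene Psmc6 at 104 ± 11.5. Psmd14, the deubiquitinase of the lid, stood at 114 ± 16.1 and 98.6 ± 14.9 TPM, and Psmd4, the ubiquitin receptor also called Rpn10, at 97.1 ± 17.7 and 91.6 ± 8.47.

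The specialized core subunits ranged from well detected to nearly absent. Psmb8, the inducible counterpart of Psmb5 in the immunoproteasome, reached 46.7% ± 1.48 of the Psmb5 TPM in CAD wild-type soma and 46.4% ± 5.64 in N2A. Psmb10, the counterpart of Psmb7, reached 14.1% ± 0.73 and 18.7% ± 4.17, whereas Psmb9, the counterpart of Psmb6, reached 0.304% ± 0.121 and 1.75% ± 0.413. The thymus subunit gene Psmb11 had 98 counts over the 3 CAD wild-type soma libraries, 197 over those of N2A and 0 over those of the transgene wild-type line. Psma8, the testis alpha subunit, had at most 3 counts in any group and was not tested.

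The balance between the particles differed by compartment. The core median TPM divided by the regulatory median TPM was 1.51, 1.51 and 1.58 in CAD wild-type soma and 2.03, 2.07 and 2.32 in the matching neurites. Every neurite library lay above every soma library of its genotype and line, also in N2A wild-type (1.34 to 1.57 in soma, 1.76 to 1.92 in neurites) and in the transgene wild-type line (2.02 to 2.24 and 2.63 to 3.03). The N2A knockout libraries lay above the N2A wild-type ones in both compartments, at 1.64 to 1.66 in soma and 2.00 to 2.10 in neurites. These ratios are given as a description with no test.

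**Figure D1:**
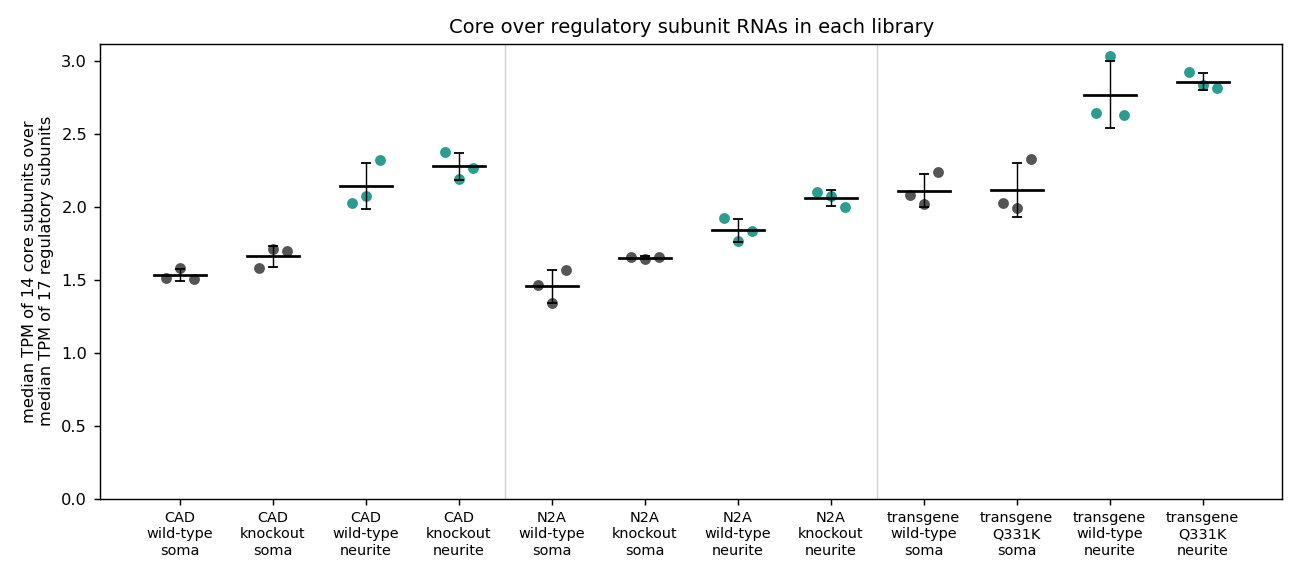
Ratio of the median TPM of the 14 constitutive core subunits to that of the 17 regulatory subunits (vertical axis, no unit) in each library of the 12 groups. Points are libraries, gray for soma and green for neurites, with the group mean (line) and SD (bar, n = 3). Neurite libraries lie above soma libraries of the same genotype in each line.

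Most proteasome RNAs were enriched in neurites relative to the median gene. The localization ratio (LR) is the log2 of the neurite level over the soma level, tested for each gene with edgeR on TMM-scaled estimated counts. A gene was called at a Benjamini-Hochberg adjusted p below 0.01 (FDR of 0.01) over all genes tested. The TMM scaling places the median gene near an LR of 0 (-0.02 in CAD wild-type), so an LR here is relative to the median gene. In CAD wild-type cells 16 of 18 core and 19 of 20 regulatory genes tested had a called positive LR, against 23.7% of all genes tested, and the median LR was 0.81 for the core and 0.50 for the regulatory particle. In N2A wild-type cells 17 of 18 core and all 20 regulatory genes were called higher, against 32.5%, with median LRs of 1.40 and 1.17.

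The enrichment is set against the median gene because the scale of the LR depends on the normalization. With total-count CPM the median gene had an LR of -0.66 in CAD wild-type and -0.36 in N2A wild-type cells, and with TPM of -1.57 and -1.48. The sign of the raw LR therefore flips with the scale: in CAD wild-type cells the median core and regulatory LRs were 0.14 and -0.17 with total-count CPM and -0.92 and -1.24 with TPM. Relative to the median gene the sign held, since the core median exceeded it by 0.81 on both CPM scales and by 0.65 with TPM, and the regulatory median did so by 0.49 (total-count CPM), 0.52 (TMM CPM) and 0.33 (TPM). Under total-count scaling the test against an LR of 0 called 2 of the 38 subunit genes higher in CAD wild-type cells and 36 in N2A.

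Among core genes, Psmb1, Psmb3 and Psmb7 led in CAD wild-type cells. Psmb1 was at 132, 122 and 138 CPM in the soma libraries and 274, 273 and 308 CPM in the neurite libraries, so the groups did not overlap, and its LR was 1.13 ± 0.07 (SE). Psmb3 had an LR of 1.02 ± 0.08 and Psmb7, the trypsin-like catalytic subunit, of 0.98 ± 0.08. In N2A wild-type cells the same measure was 1.55 ± 0.10 for Psmb1, 1.52 ± 0.09 for Psmb7 and 1.47 ± 0.08 for Psma6. The other catalytic subunits, Psmb5 and Psmb6, had LRs of 0.75 ± 0.12 and 0.84 ± 0.08 in CAD and 1.39 ± 0.12 and 1.36 ± 0.09 in N2A wild-type cells.

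The immunoproteasome subunits followed the constitutive ones where they were well measured. Psmb8 had an LR of 0.84 ± 0.07 in CAD and 1.07 ± 0.08 in N2A wild-type cells, and Psmb10 of 0.80 ± 0.13 and 1.22 ± 0.12. Psmb9 was called in N2A alone among the lines (1.20 ± 0.28), and its CAD value of 0.89 ± 0.53 rested on 8 to 33 counts per wild-type library. The exception in direction was Psmb11, with 51 to 76 counts in the N2A wild-type soma libraries and 2 to 11 in the neurite libraries, and an LR of -3.04 ± 0.59.

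Among the regulatory genes, the lid subunit Psmd8 had the highest LR in CAD wild-type cells at 0.79 ± 0.07, and the ATPases Psmc6 and Psmc3 followed at 0.70 ± 0.08 and 0.66 ± 0.07. At the other end, the base scaffolds Psmd2 and Psmd1 had LRs of 0.29 ± 0.06 and 0.28 ± 0.06, the lid subunit Psmd11 of 0.26 ± 0.05, and Psmd3 was not called at 0.10 ± 0.07. In N2A wild-type cells Psmc6 (1.45 ± 0.09), Psmd10 (1.36 ± 0.10) and Psmc3 (1.33 ± 0.10) led, and the same 4 genes had the lowest regulatory LRs, between 0.66 and 0.78. Psmd14 and Psmd4 were at 0.61 ± 0.07 and 0.66 ± 0.06 in CAD and 1.33 ± 0.08 and 1.29 ± 0.09 in N2A. The assembly chaperones Psmd5, Psmd9 and Psmd10 had LRs of 0.56, 0.39 and 0.64 in CAD and 1.18, 1.0 and 1.36 in N2A wild-type cells, all called. Psmc3ip, near 1 CPM in soma, had LRs of 0.92 ± 0.21 and 1.16 ± 0.26.

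**Figure D2:**
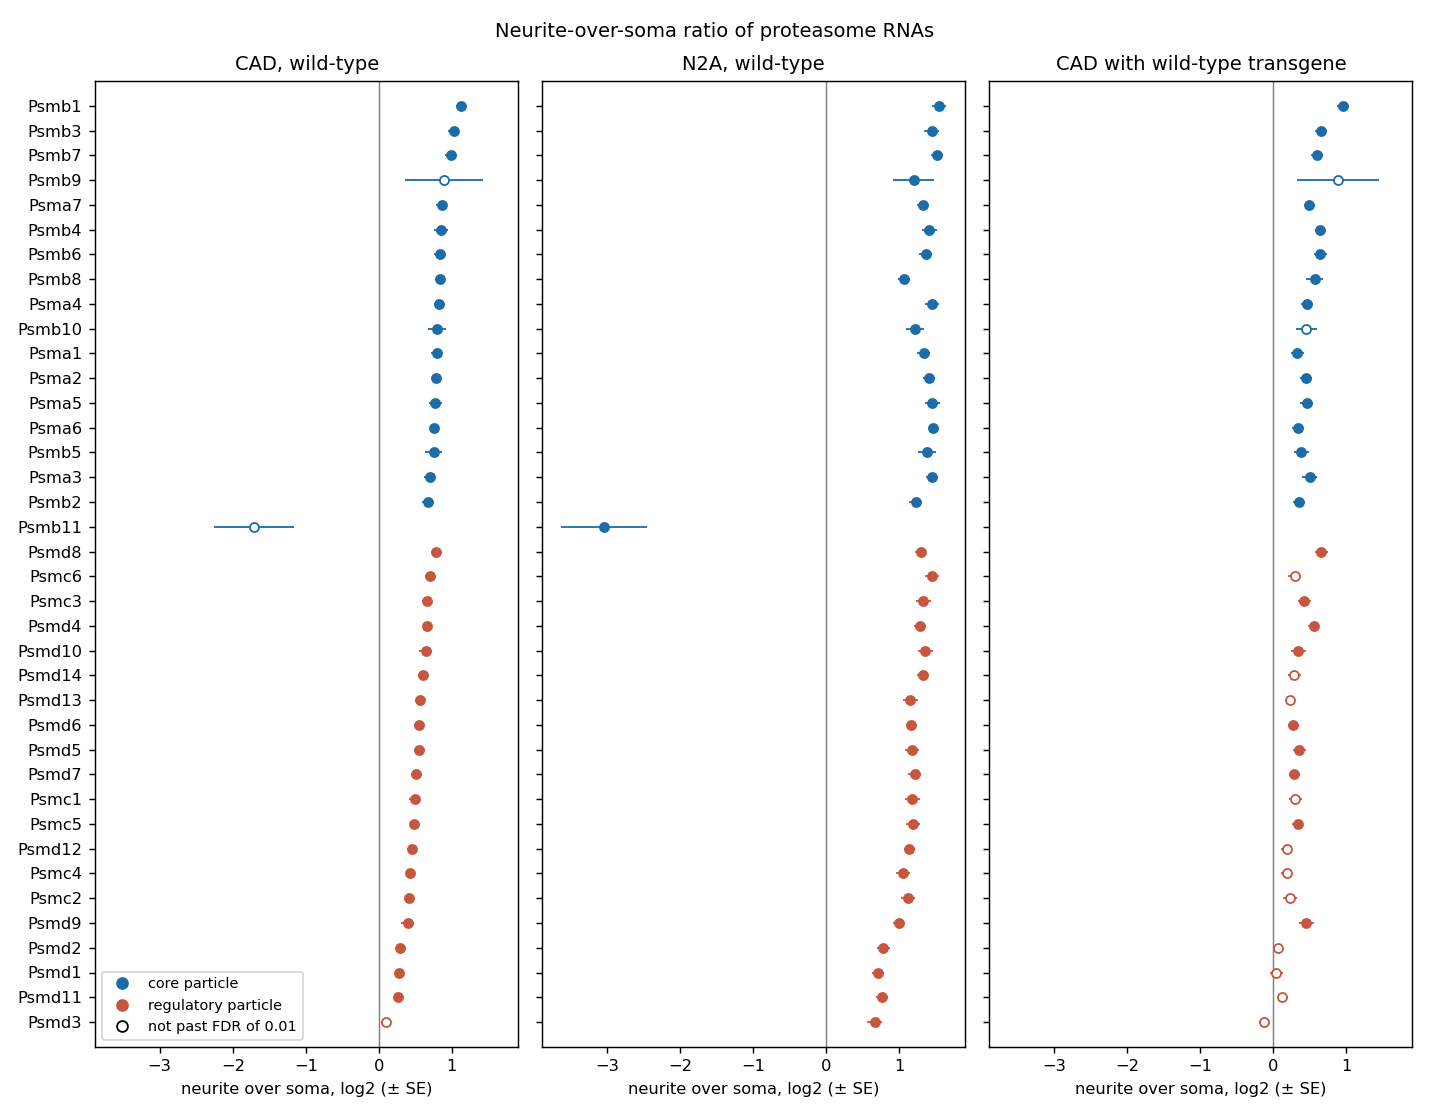
Localization ratio (log2 of neurite over soma, horizontal axis, ± SE) of each proteasome subunit gene tested, in wild-type CAD, wild-type N2A and the CAD line with the wild-type transgene, ordered by the CAD value within the core (blue) and regulatory (red) particle. Filled points passed the FDR of 0.01. Nearly all points lie right of 0 on this TMM scale, Psmd3, Psmd11, Psmd1 and Psmd2 lie lowest among regulatory genes, and Psmb11, not tested in the transgene line, lies left of 0.

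Short transcripts had higher LRs throughout the transcriptome, and proteasome transcripts are short. The median length was 1174 bases for the main coding transcript of the core genes, 1710.5 for the regulatory genes and 2859 for all coding genes tested. Across the 38 subunit genes, Spearman's rho between length and LR was -0.65 in CAD and -0.62 in N2A wild-type cells, against -0.55 and -0.47 across all coding genes. These correlations are across genes that share libraries and are given as a description. Among the 14 subunit genes with transcripts of 1000 to 1500 bases, the median LR was 0.78 in CAD and 1.32 in N2A wild-type cells, whereas it was 0.51 and 0.85 for all coding genes of that length. The subunit genes also had the higher median in the other 3 length classes in both lines. In the transgene wild-type line their median was 0.50 below 1000 bases, against 0.60 for all coding genes of that length.

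The CAD transgene lines showed the same sign with smaller LRs. In the wild-type transgene line 15 of 17 core genes and 9 of 20 regulatory genes were called higher, against 14.9% of all genes tested, and the medians were 0.50 and 0.29. In the Q331K line 14 core and 15 regulatory genes were called, against 16.7%, with medians of 0.58 and 0.36. Psmb1 again had the highest called LR, at 0.96 ± 0.08 and 0.97 ± 0.08, and Psmd8 led the regulatory genes at 0.66 ± 0.09 and 0.61 ± 0.09, followed by Psmd4 at 0.55 ± 0.08 and 0.57 ± 0.08. Among the catalytic subunits Psmb6 was at 0.65 in both lines, Psmb7 at 0.60 and 0.74, and Psmb5 at 0.39 and, not called, 0.35. The number called depended on single replicates, each left out as its soma and neurite library together. It fell from 24 to 9 or 13 without wild-type replicate 1 or 2, and from 29 to 13 or 19 without Q331K replicate 1 or 2. CAD and transgene lines were not tested against each other, and they differed in depth and in the transcript set used for quantification.

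N2A and CAD wild-type cells were tested against each other. The LR was higher in N2A than in CAD for 11 of 18 core and all 20 regulatory genes, against 13.6% of all genes tested, with median differences of 0.54 and 0.63. The largest core differences were those of Psma3 (0.76 ± 0.11), Psma6 (0.71 ± 0.11) and Psma5 (0.68 ± 0.15), and the largest regulatory ones those of Psmc6 (0.75 ± 0.14), Psmd14 (0.73 ± 0.11) and Psmd10 (0.72 ± 0.14). Without N2A wild-type replicate 1 or 2 the number called fell from 31 to 10 or 20. No label places the lines in a shared sequencing run, so line and run cannot be told apart.

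Soma levels also differed between the lines. In N2A wild-type soma 14 core and 14 regulatory genes were called lower than in CAD and 2 regulatory genes higher. Of the 19700 genes tested 5913 were called lower and 4176 higher, or 51.2% in either direction. Psma7 was at 256 to 378 TPM in CAD and 159, 182 and 201 TPM in N2A, and on the count scale the difference was -1.08 ± 0.08. The other large differences were those of Psmb6 (-1.03 ± 0.10) and Psmb1 (-0.83 ± 0.09) in the core and of Psmd13 (-1.10 ± 0.10), Psmd12 (-0.81 ± 0.08) and Psmd3 (-0.74 ± 0.10) in the lid. The ATPase gene Psmc1 was higher in N2A by 0.73 ± 0.10 and the chaperone gene Psmd9 by 0.30 ± 0.09, so subunits of the same complex did not all share a direction.

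In the CAD knockout the neurite enrichment of the proteasome RNAs remained. In knockout cells 16 core and 19 regulatory genes were called higher in neurites, against 24.6%, with median LRs of 0.85 and 0.60, and Psmb11 was called lower (-1.95 ± 0.54). Psmb1 (1.02), Psmb7 (0.93) and Psmb3 (0.91) had the highest LRs of the core, and Psmd10 (0.84), Psmc6 (0.76) and Psmc3 (0.75) those of the regulatory particle. The LR change, knockout minus wild-type, had a median of 0.01 in the core and 0.09 in the regulatory particle, and none of the 38 subunit genes was called by edgeR, where 0.432% of all genes were. At an unadjusted p below 0.05, 2 subunit genes passed, against 1819 of the 17343 genes tested. They were Psmc2, an ATPase (0.29 ± 0.08), and Psmd4 (-0.18 ± 0.08). DESeq2 and limma also called 0, where they called 1.29% and 0.098% of all genes.

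Psmd4 had the largest called change of level among subunit genes in CAD cells. It had 80.9, 77.7 and 85.9 CPM in wild-type soma and 43.6, 47.9 and 44.0 CPM in knockout soma. In neurites it had 132, 124 and 130 CPM in wild-type and 65.5, 60.7 and 62.4 CPM in knockout libraries. The genotypes did not overlap in either compartment, and knockout neurites lay below wild-type soma. The log2 changes were -0.85 ± 0.06 in soma (edgeR adjusted p = 2.76e-08) and -1.03 ± 0.06 in neurites (edgeR adjusted p = 2.85e-09), that is 1.80-fold and 2.04-fold lower. With edgeR at the FDR of 0.01, Psmd4 alone of the subunit genes was called in CAD soma, where 22.8% of all genes were. The count was 2 without knockout replicate 1, 3 with upper-quartile scaling or protein-coding transcripts and 4 with DESeq2 or a filter of 10 counts in every library. The soma call held under all 17 alternatives and the neurite call under 16 of 17, the exception being limma on uncentered TPM (adjusted p = 0.0213).

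Psmd4 (ENSMUSG00000005625) lies on the minus strand at chr3:95032694-95042614 of GRCm38. Both main coding transcripts had lower levels in CAD knockout soma, that of 1276 bases with 30.4 ± 5.01 TPM in wild-type and 11.9 ± 3.32 TPM in knockout and that of 1332 bases with 59.0 ± 11.5 and 29.9 ± 3.27 TPM (SD, n = 3). In N2A soma the same transcripts were at 24.6 ± 5.07 and 56.1 ± 3.92 TPM in wild-type and 24.9 ± 0.41 and 58.5 ± 9.20 TPM in knockout libraries. Of the other 9 coding genes tested within 100 kb, Selenbp1, a selenium-binding protein gene, also fell in CAD soma (-0.74 ± 0.11), CAD neurites (-0.68 ± 0.11) and N2A neurites (-1.61 ± 0.15), and Pip5k1a rose in CAD neurites (0.23 ± 0.05).

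**Figure D3:**
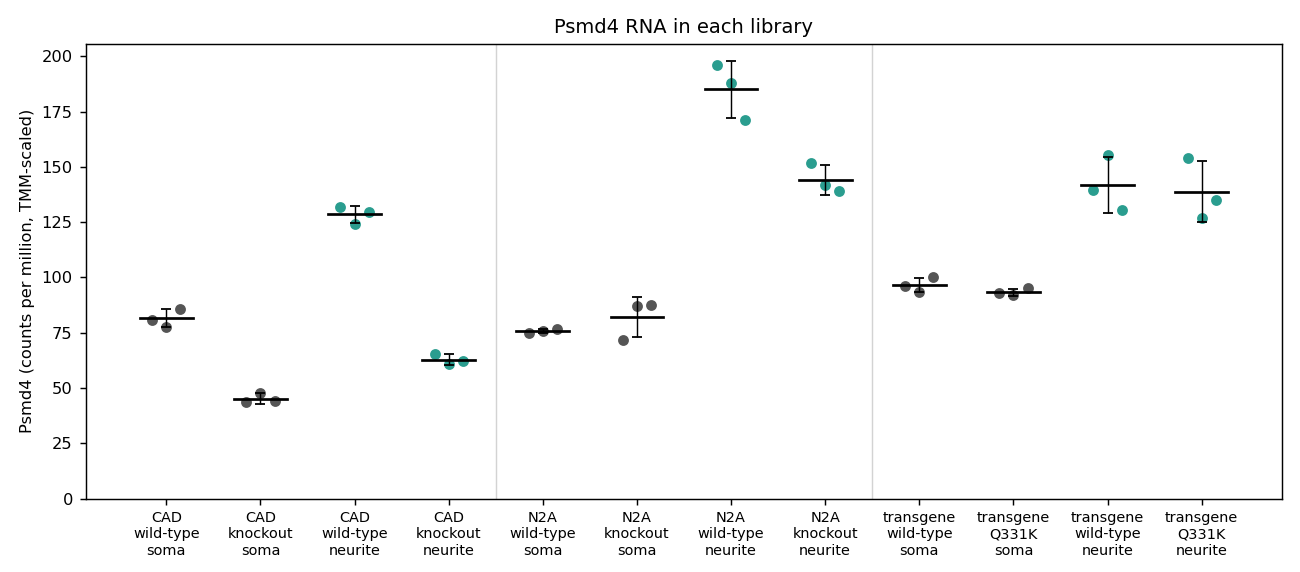
Psmd4 level (TMM-scaled CPM, vertical axis) in each library of the 12 groups, gray for soma and green for neurites, with the group mean (line) and SD (bar, n = 3). CAD knockout libraries lie below CAD wild-type libraries in both compartments, N2A knockout libraries lie below wild-type ones in neurites only, and the transgene groups overlap.

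In N2A cells Psmd4 moved less. The soma libraries overlapped, with 74.8, 75.6 and 76.8 CPM in wild-type and 71.6, 87.2 and 87.5 CPM in knockout, and the gene was not called. In neurites it fell from 196, 188 and 171 CPM to 152, 142 and 139 CPM, a change of -0.36 ± 0.08 (edgeR adjusted p = 0.00635). The line difference of the knockout effect was called in both compartments, at 1.04 ± 0.11 in soma and 0.72 ± 0.11 in neurites (edgeR adjusted p = 5.45e-07 and 5.32e-05). In the transgene lines Psmd4 was at 93.5 to 100.1 CPM with wild-type and 92.0 to 95.0 CPM with Q331K TDP-43 in soma.

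Outside Psmd4, changes in CAD neurites were small. In all, 2 core and 4 regulatory genes were called there, against 25.3% of all genes tested. The alpha-ring subunits moved in opposite directions: Psma5 rose by 0.38 ± 0.09 and Psma4 fell by 0.27 ± 0.07. Psma5 had 108, 96.9 and 111 CPM in wild-type and 156, 129 and 125 CPM in knockout neurites, and Psma4 had 136, 140 and 155 against 125, 121 and 111 CPM, without overlap. The ATPase genes Psmc2 and Psmc5 rose by 0.29 ± 0.06 and 0.27 ± 0.06, and the lid gene Psmd3 fell by 0.34 ± 0.07. Psmc2 had 78.7, 74.3 and 74.7 CPM in wild-type and 95.8, 93.5 and 88.4 CPM in knockout neurites. Without wild-type replicate 2 or knockout replicate 2 the count fell from 6 to 3, and Psma4 was called under 8 of 17 alternatives.

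In the N2A knockout the LRs of nearly all subunit genes were lower than in wild-type, but the changes did not pass the threshold. The knockout cells kept a positive LR, called in 16 core and 19 regulatory genes against 25.3% of all genes, but the median LR was 0.94 for the core and 0.79 for the regulatory particle. Psmb3 (1.12), Psmb1 (1.09), Psma5 (1.06) and Psmb7 (1.06) had the highest values of the core, and the other catalytic genes Psmb5 and Psmb6 were at 0.93 and 1.02. Psmc6 (1.01), Psmd8 (1.0) and Psmd10 (0.93) led the regulatory particle, and Psmd3 was not called at 0.28 ± 0.10. The median LR change was -0.43 and -0.39, against -0.01 over all genes, and it was negative in 37 of the 38 genes. Several gene lists described below also fell. Their medians were -0.39 for chaperonin subunits, -0.37 for core assembly chaperones and -0.38 for proteasome-bound enzymes and shuttles. Other proteasome subunits, activators and inhibitors were at -0.36 and polyubiquitin genes at -0.31. Regulators of proteasome transcription were at -0.18, and interferon-gamma and antigen presentation genes at 0.37. Spearman's rho between transcript length and the LR change was 0.20 across all coding genes and 0.26 across the subunit genes. Relative to the median gene the core and regulatory medians were -0.42 and -0.38. They were -0.26 and -0.24 with protein-coding transcripts only and -0.55 and -0.49 without wild-type replicate 3. On the uncentered TPM scale, on which the median gene itself moved, they were -0.07 and 0.01. At the FDR of 0.01 edgeR called 0 of the 38, where 0.1% of all genes were called. Limma called 0, where it called 0.0558% of all genes. With edgeR 35 had an unadjusted p below 0.05, against 5582 of the 17912 genes tested. At an FDR of 0.05 edgeR called 8 core and 5 regulatory genes lower, against 5.33% of all genes. DESeq2 called 8 core and 7 regulatory genes lower at the FDR of 0.01, against 7.19% of all genes.

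The largest falls in LR among those 13 genes were in the core: Psmb10 (-0.62 ± 0.17), Psma3 (-0.52 ± 0.11) and Psma6 (-0.52 ± 0.11). Psma6 had 277, 263 and 261 CPM in wild-type neurites and 253, 244 and 230 CPM in knockout neurites, with 91.1, 93.8 and 104 CPM in wild-type soma and 115, 127 and 133 CPM in knockout soma. Its neurite libraries were thus lower and its soma libraries higher in the knockout, with no overlap in either compartment. In the regulatory particle Psmd4 (-0.48 ± 0.12) and Psmd14 (-0.47 ± 0.11) fell most among those called at the FDR of 0.05. Psmd14 had 63.6, 72.1 and 75.0 CPM in wild-type and 77.4, 87.6 and 91.7 CPM in knockout soma, and 173 to 183 against 154 to 158 CPM in neurites. The line difference of the LR change had medians of -0.44 in the core and -0.48 in the regulatory particle. edgeR called it in 0 of the 38 genes, against 0.203% of all genes. DESeq2 called 3, against 1.48% of all genes, and limma 0, against 0.0152%. Without N2A knockout replicate 1 edgeR called 1, and no share over all genes is given for that fit. With edgeR 29 had an unadjusted p below 0.05, against 3649 of the 19700 genes tested.

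**Figure D4:**
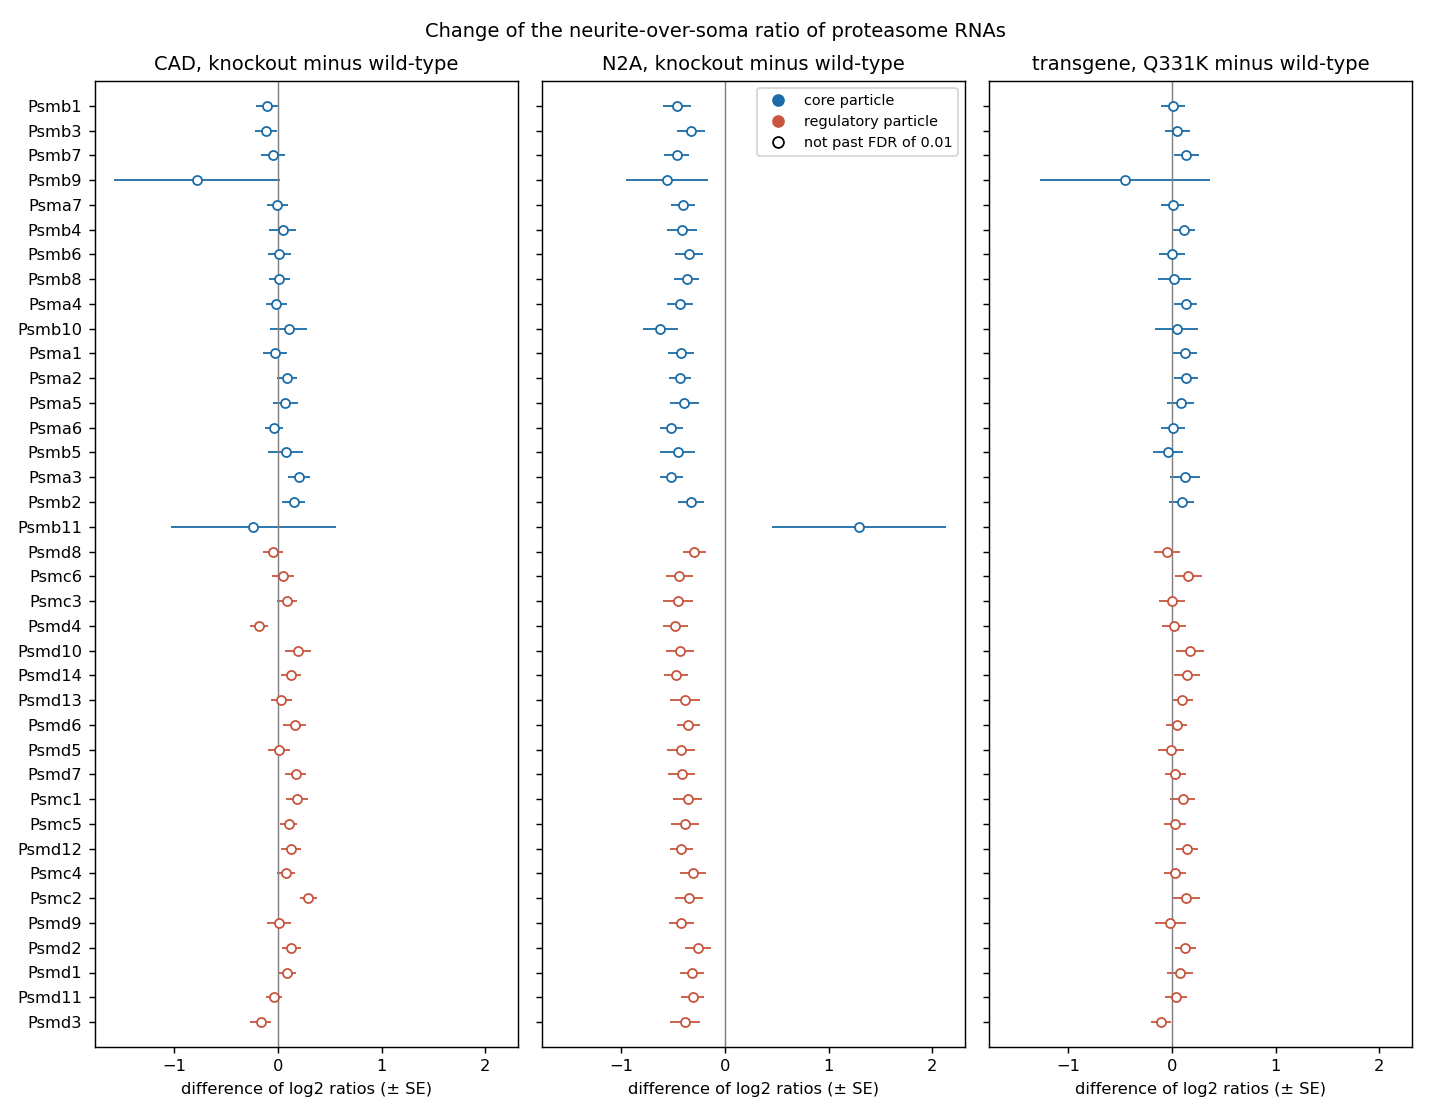
Change of the localization ratio (difference of log2 ratios, horizontal axis, ± SE) of each proteasome subunit gene tested, knockout minus wild-type in CAD and N2A and Q331K minus wild-type in the transgene lines, in the order of the CAD wild-type ratio. All points are open because none passed the FDR of 0.01. In N2A 37 of 38 points lie left of 0, and in CAD and the transgene lines they lie on both sides.

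Some other measures moved with genotype in the N2A libraries. Transcripts of the subunit genes that are annotated as noncoding, such as those with retained introns, took 11.4 to 13.6% of their summed TPM in wild-type soma and 8.90 to 10.6% in knockout soma, against 4.88 to 5.42% and 5.34 to 6.25% in neurites. In CAD soma the ranges overlapped between genotypes, at 8.38 to 9.89% and 8.74 to 11.6%. The share was lower in neurites than in soma in 31 of 31 subunit genes with at least 1% in N2A wild-type cells and in 28 of 30 in CAD wild-type cells. The median coding gene had a lower share in neurites too. Its mean over libraries was 10.9% in soma and 2.54% in neurites of N2A wild-type cells, and 7.40% and 2.63% in CAD. The number of all genes with a lower share was not counted. Over all coding genes the share of summed TPM was 14.8% ± 2.02 in N2A wild-type soma and 10.7% ± 1.51 in knockout soma (SD, n = 3). The nuclear RNA Neat1 was at 81.4 to 295 CPM in N2A wild-type soma and 29.2 to 104 CPM in N2A knockout soma, with overlap. The nuclear RNA Malat1 also overlapped, at 816 to 2713 and 414 to 2032 CPM. Meg3, another, went the other way, at 1.29 to 2.12 and 1.60 to 2.53 CPM, with overlap. Mitochondrial RNA took 5.58% ± 1.56 of counts in N2A wild-type neurites and 10.5% ± 3.01 in knockout neurites (SD, n = 3), without overlap. In N2A soma it took 4.10 to 6.22% in wild-type and 6.92 to 8.95% in knockout libraries, and ribosomal protein RNAs took 2.77% ± 0.17 and 3.40% ± 0.09 (SD, n = 3), neither with overlap. The part of these measures in the N2A LR change and in the N2A soma changes was not tested. With counts restricted to protein-coding transcripts, 37 of 38 changes were still negative.

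**Figure D5:**
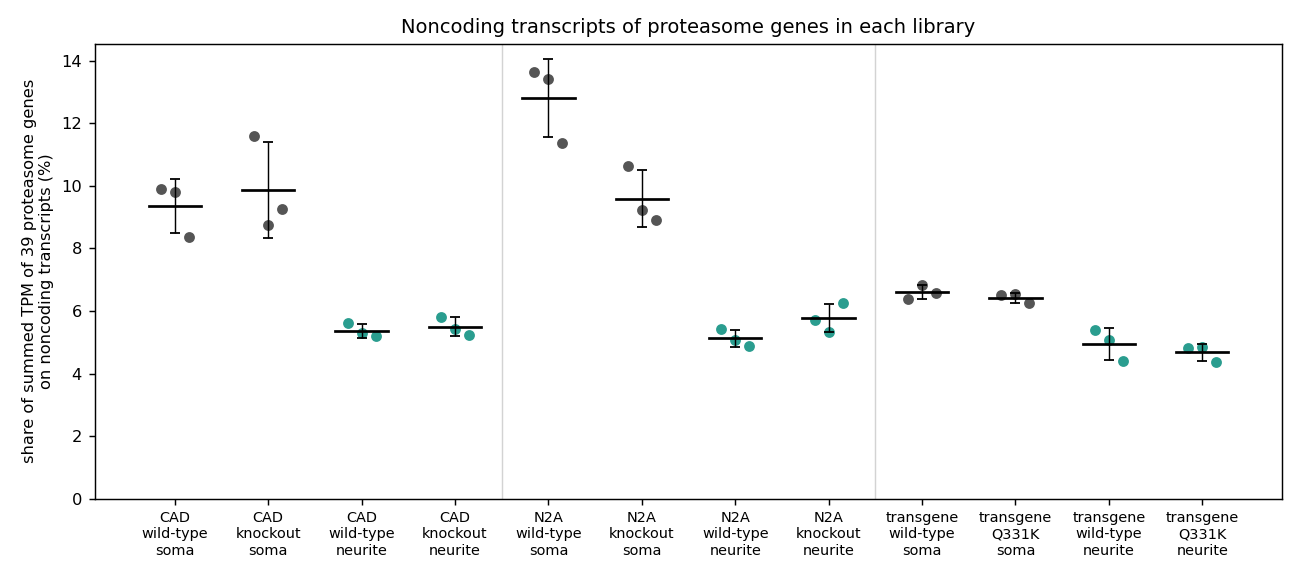
Percent of the summed TPM of the 39 subunit and chaperone genes that lay on transcripts annotated as noncoding (vertical axis) in each library of the 12 groups, gray for soma and green for neurites, with the group mean (line) and SD (bar, n = 3). N2A wild-type soma lies highest and does not overlap N2A knockout soma, and all neurite libraries lie below the soma libraries of their line.

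In N2A soma 4 core and 3 regulatory genes rose in the knockout. Of the 17912 genes tested 1955 were called higher, and 16.1% in either direction. Psmb10 had 6.63, 5.77 and 6.56 CPM in wild-type and 9.21, 8.80 and 11.8 CPM in knockout soma, a rise of 0.65 ± 0.12. The ATPase gene Psmc3 rose from 46.0, 46.9 and 51.8 CPM to 57.6, 73.7 and 77.2 CPM, by 0.53 ± 0.10. Psma5, Psma6, Psmb7, Psmc2 and Psmc5 rose by 0.38 to 0.39. Psmc3ip, at 0.81 to 1.36 CPM in wild-type soma, rose by 1.28 ± 0.26. All 20 regulatory and 17 of 18 core genes had a positive change, with medians of 0.22 and 0.28 against -0.02 over all genes. The number called depended on single replicates, each left out as its soma and neurite library together. It was 17 without knockout replicate 1, 4 without knockout replicate 3, 1 without knockout replicate 2, and 2 and 1 without wild-type replicates 1 and 2.

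In N2A neurites the medians were -0.12 in both particles, and 1 core gene, Psma2, and 1 regulatory gene, Psmd4, were called lower. Of the 17912 genes tested 913 were called lower, and 11.6% in either direction. Psma2 had 145, 139 and 126 CPM in wild-type and 114, 108 and 98.6 CPM in knockout neurites, a change of -0.35 ± 0.08. Neither call held when any wild-type replicate, or knockout replicate 2 or 3, was left out.

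The knockout effect on soma levels differed between the lines for 3 core and 2 regulatory genes, against 10.5% of all genes tested. Beside Psmd4 these were Psmb10 (0.90 ± 0.19), Psmc3 (0.55 ± 0.14), Psmb8 (0.54 ± 0.12) and Psma4 (0.51 ± 0.13), all positive, that is higher in N2A relative to CAD. In neurites Psmd4 alone differed, against 9.18% of all genes. The soma count was 8 with a replicate block and 11 without N2A knockout replicate 1. It was 3 without CAD wild-type replicate 2, CAD knockout replicate 3 or N2A wild-type replicate 1, and 2 without CAD wild-type replicate 3, CAD knockout replicate 1, N2A wild-type replicate 2 or N2A knockout replicate 2 or 3.

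The Q331K substitution changed no proteasome RNA past the threshold. edgeR called 0 of 37 subunit genes for the LR change and for the soma and neurite changes, as it called 0% of all 13940 genes in each of the 3 tests. DESeq2 and limma also called 0. Over all genes DESeq2 called 0.0717% for the neurite change and 0% for the others, and limma 0% for each. At an unadjusted p below 0.05 there were 0, 2 and 0 subunit genes, against 605, 995 and 1372 of all genes tested. The median LR change was 0.05 in the core and 0.04 in the regulatory particle, and the single-gene SE had a median of 0.12. Psmb5 had 29.1 to 33.1 CPM in soma with the wild-type and 29.1 to 32.6 CPM with the Q331K transgene.

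TDP-43 binds GU-rich RNA, so the 3′ UTRs were searched for GTGTG or TGTGT, on the transcript strand, in the coding transcript with the highest TPM of each gene. The 2 words overlap, and a UTR was counted once if it held either. The study also counts GUAUG as a TDP-43 motif, and that word was not searched for. They were found in 7 of 18 core and 14 of 20 regulatory genes, or 55.3% of the 38, against 77.0% of 14452 coding genes tested. Proteasome 3′ UTRs are short, with medians of 161 bases in the core and 325 in the regulatory particle against 936 overall. Among UTRs of at most 400 bases, 10 of 27 proteasome UTRs (37.0%) held a word, against 35.0% of 3956. The windows printed here come from the 6 genes that were called in a knockout comparison and hold a word, to show how long the GU run is in each. Sequence and coordinates follow GRCm38, each window spans 30 bases of 1 exon, and capitals mark the longest run.
Psmd4, chr3:95032777-95032806, minus strand: gggaggggtagcTGTGTctgcccggggact
Psma5, chr3:108279900-108279929, plus strand: tccagtataTGTGTGTGTGTttttttatga
Psmc5, chr11:106263063-106263092, plus strand: ggctgtgtccttTGTGTGctcccccccccc
Psmd3, chr11:98695877-98695906, plus strand: ccatggattaggGTGTGgactagggcctgg
Psma6, chr12:55418324-55418353, plus strand: tgcctgtgcctaTGTGTttggtaacaacaa
Psma2, chr13:14627514-14627543, plus strand: ggtgaGTGTGTGTGTGTGTGTGTGTaagta

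Psma2 carried the longest run of these, 20 bases in a UTR of 2171 bases, and fell in N2A neurites. Psma5 carried 11 bases in a UTR of 162 bases and rose in CAD neurites and N2A soma. The run in Psmd4, which fell most, was 5 bases, the shortest the search could find. Psma4, Psmc2, Psmb7, Psmb10 and Psmc3 were also called and held neither word. A word in this window is a description and not a binding site.

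Genes that assemble, bind or regulate the proteasome were described from lists. The core assembly chaperones (Psmg1 to Psmg4 and Pomp) were called higher in neurites in 5 of 5 genes in CAD and N2A wild-type cells, with median LRs of 0.72 and 1.12. Over all genes the share called higher was 23.7% in CAD and 32.5% in N2A, and the counts that follow give CAD before N2A. Other proteasome subunits, activators and inhibitors were called higher in 5 and 6 of 7 genes, proteasome-bound enzymes and ubiquitin shuttles in 6 and 12 of 15, and regulators of proteasome transcription in 3 and 4 of 8, with 3 and 1 lower. Of the 2 polyubiquitin genes 1 was called higher in each line and 1 lower in CAD. Of 8 interferon-gamma and antigen presentation genes, 1 was higher and 2 lower in CAD, and 3 were higher and 5 lower in N2A. The 8 subunits of the cytosolic chaperonin, another large complex chosen as a comparator, were called in 8 of 8 with median LRs of 0.63 and 1.24. For the LR change edgeR and limma called 0 of the 53 list genes in either line. Over all genes edgeR called 0.432% in CAD and 0.1% in N2A, and limma 0.098% and 0.0558%. With edgeR 5 (CAD) and 37 (N2A) had an unadjusted p below 0.05, against 1819 of 17343 and 5582 of 17912 genes tested. DESeq2 called 1 lower in CAD, Mafk, where it called 1.29% of all genes, and 17 lower in N2A, against 7.19% of all genes, among them Cct8, 6 other chaperonin genes and Ubb.

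Few list genes moved in the same compartment of both lines. Mafk, a small Maf partner of Nfe2l1, fell in neurites by 0.60 ± 0.08 in CAD and 0.51 ± 0.10 in N2A. The polyubiquitin gene Ubb fell in neurites by 0.36 ± 0.07 and 0.45 ± 0.10. Psmf1, an inhibitor of the core particle, rose in soma by 0.34 ± 0.07 and 0.42 ± 0.09, and the chaperonin gene Cct8 rose in soma by 0.99 ± 0.07 and 0.77 ± 0.08 and in neurites by 1.09 ± 0.07 and 0.44 ± 0.08. Nfe2l1 fell in CAD soma (-0.32 ± 0.07) and neurites (-0.33 ± 0.07) and was not called in N2A. The core assembly chaperone gene Psmg1 fell in CAD soma (-0.40 ± 0.11) and neurites (-0.56 ± 0.11).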

How the data were processed

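The authors trimmed reads with cutadapt and quantified transcripts with Salmon. The deposited estimated counts and TPM per transcript were added up per gene; the gene of each transcript came from GENCODE vM21 (GRCm38). Salmon shares reads between near-identical copies, so genes with processed pseudogenes are less certain. Estimated counts were rounded, filtered (filterByExpr), TMM-scaled and tested with edgeR 4.0.16 quasi-likelihood fits in R 4.3.3, with 12 libraries per experiment and 24 in the fit across lines, p-values being adjusted over all genes tested. CPM are TMM-scaled. SE is the log2 change over the root of F. The alternatives were DESeq2 1.42.0, limma 3.58.1 on log2(TPM + 0.1), other scalings and filters, protein-coding transcripts, replicate blocks, leaving out each replicate and an FDR of 0.05. A replicate of a line and genotype was left out with its soma and neurite library together. The fits were tested on simulated data, where 59.3% of 189 genes given a 2-fold LR change in the CAD fit (16635 genes) and 42.3% of 196 in the N2A fit (17263 genes) were recovered, and 28.6% of 189 in the fit across lines (18526 genes). Deviations of same-numbered N2A soma libraries of the 2 genotypes had correlations of 0.549, 0.123 and 0.324. Differently numbered libraries were not compared, so these values do not show that the numbers pair them. No label gives a shared batch.

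The members and lists were chosen with earlier results of these data known. The genes named are those in fixed roles (catalytic, immunoproteasome, chaperone, Psmd4, Psmd14, Psmc3ip), the 3 largest called rises and falls per particle and test, and the highest and lowest levels. Others named, such as Psmd1, Psmd11, Selenbp1, Nfe2l1 and Psmg1, were chosen after their values were seen. Of 86 samples, the human, reporter, binding and RNA decay samples were not used here.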

Additional observations from a re-analysis of the deposited data

Results flagged for a closer look

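Among the 38 subunit genes, the knockout effect differed between N2A and CAD by a direct test of the difference (edgeR, FDR of 0.01) in these cases. On the log2 scale, N2A minus CAD, the difference in soma was 1.04 for Psmd4, 0.898 for Psmb10, 0.548 for Psmc3, 0.542 for Psmb8 and 0.505 for Psma4. In neurites it was 0.725 for Psmd4. These were 5 of the 38 in soma, against 10.5% of all genes tested, and 1 of the 38 in neurites, against 9.18%. They are values of single genes and not a trait of the set. The Psmd4 differences were called under 22 of 23 alternatives in each compartment, that of Psmb10 under 19, that of Psmb8 under 14, and those of Psmc3 and Psma4 under 9 each. Groups had 3 libraries, so no library was examined as an outlier.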

How the results depend on the processing

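No named gene called in a main test changed direction relative to the median gene in that test under any alternative. For values not called in the main test the direction was not compared. Of the values for single genes, 352 fell short of the threshold under an alternative where they had passed it and 79 passed where they had not. In the counts below, an LR within a genotype and its line difference count only members called higher. The line difference in soma counts only members called lower, and the other tests count both directions. With limma on uncentered log2(TPM + 0.1), in which the median gene moves, 0 members were called higher for every such LR. In either direction 0 were called for every LR change, CAD neurite, N2A soma, N2A neurite, line soma change and line neurite change. Over all genes this limma fit called at most 0.098% for the LR changes. It called 3.71% (CAD neurite), 0.77% (N2A soma), 0.536% (N2A neurite), 0.218% (line soma change) and 0.112% (line neurite change). For the line difference in soma 1 was called lower. With total-count scaling, chosen after seeing the data, counts were 2 (CAD LR wild-type), 8 (CAD LR knockout), 1 and 1 (transgene LR), 3 (N2A soma), 8 (N2A neurite), 1 (line soma change) and 12 (line neurite change). With limma on median-centered TPM, also added later, N2A soma and line soma change gave 1 each. DESeq2 gave 4 (CAD soma), 15 (N2A LR change), 18 (N2A soma), 4 (N2A neurite), 3 (line LR change), 8 (line soma change) and 3 (line neurite change). In the same order DESeq2 called 25.8, 9.23, 21.7, 15.4, 1.48, 13.6 and 12.8% of all genes. The main fit called 22.8, 0.1, 16.1, 11.6, 0.203, 10.5 and 9.18%. For the other scalings, filters and fits the share over all genes is not given. Upper-quartile scaling gave 3 (CAD soma), 4 (N2A soma), 3 (line soma change) and 3 (line neurite change). Without a filter the counts were 3 (CAD neurite), 2 (N2A LR change), 12 (N2A soma), 1 (line LR change) and 8 (line soma change), and with at least 10 counts in every library 4 (CAD soma) and 3 (line neurite change). Protein-coding transcripts gave 3 (CAD soma) and 2 (line neurite change), and length-scaled counts 0 (N2A neurite) and 1 (line soma change). The looser FDR of 0.05 gave 5 (CAD soma), 13 (N2A LR change), 20 (N2A soma), 6 (N2A neurite), 1 (line LR change), 15 (line soma change) and 2 (line neurite change). The cause was not tested.

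Same-numbered soma and neurite libraries had correlations of -0.166 to 0.23 in CAD, -0.048 to 0.147 in N2A and -0.066 to 0.169 in the transgene lines. Differently numbered libraries were not compared, so these values do not settle whether the numbers pair the compartments. Between genotypes within a compartment they were 0.123 to 0.549 in N2A soma, over 0.1 in every pair, but at most 0.1 in at least 1 pair of CAD soma (0.089) and N2A neurites (0.054). A replicate block by number gave 4 (CAD soma), 7 (CAD neurite), 8 (N2A soma, all 7 called without it among them) and 8 (line soma change).

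Leaving out 1 replicate of a line and genotype at a time, soma and neurite library together, gave these ranges: CAD LR wild-type 33 to 35, CAD LR knockout 33 to 35, CAD soma 1 to 2, CAD neurite 3 to 6, N2A LR wild-type 36 to 37, N2A LR knockout 34 to 35, N2A soma 1 to 17, N2A neurite 0 to 2, transgene LR wild-type 9 to 24, transgene LR Q331K 13 to 29, line soma 24 to 29, line LR 10 to 34, line LR change 0 to 1, line soma change 2 to 11 and line neurite change 1. The remaining counts stayed at 0.

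The main limits are 3 libraries per group and doxycycline given with every knockout. Psma8 could not be tested at this depth and Psmb9 and Psmb11 rest on few counts.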
